A study of Homo sapiens with 6 samples.

Results

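Ribosomal protein genes were taken by gene symbol. Cytosolic members carried a symbol starting with RPL or RPS and mitochondrial members one starting with MRPL or MRPS, with pseudogenes, antisense genes and the RPS6K kinases left out. Of 14884 genes with a symbol of their own on the array, 128 met this rule, namely 73 mitochondrial and 55 cytosolic genes. The mitochondrial genes comprised 48 named for the large subunit and 25 named for the small subunit, and the cytosolic genes 36 and 19. RefSeq lists 40 further protein-coding symbols of the same form, 4 mitochondrial and 36 cytosolic, which were not analysed here. The cytosolic ribosome is therefore described from a part of its genes and the mitochondrial one from nearly all of its genes.

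The samples were THP-1 cells, an established human acute monocytic leukaemia line, transduced with the psi-LVRU6GP lentiviral vector. In 3 RKIP shRNA samples the vector carried a short hairpin against RKIP, and in 3 control samples it was empty, so RKIP depletion and the presence of a hairpin cannot be told apart. Both groups were selected and kept in 1.5 µg/mL puromycin, and 250 ng of total RNA per sample was labelled for an Affymetrix gene array. RKIP, the product of PEBP1, is known to restrain signalling through the kinases RAF, MEK and ERK. The labels name no second hairpin and do not say whether the 3 replicates of a group came from separate transductions, and p-values here reflect only how far these samples differ among themselves, which may in part be technical.

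Cytosolic ribosomes translate the messages of the nuclear genome, and each of their proteins is needed in step with the others. Mitochondrial ribosomes translate the few messages of mitochondrial DNA, which encode membrane subunits of the respiratory chain and ATP synthase, yet all their proteins are encoded in the nucleus and imported. Acute myeloid leukaemia cells are known to depend on mitochondrial translation. Messages of cytosolic ribosomal proteins usually start with a run of pyrimidines, the 5′ terminal oligopyrimidine (TOP) tract, through which mTOR and LARP1 control their translation, so their abundance on an array need not follow their use.

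Every value is a deposited log2 value of 1 probe set per gene, and every change is the mean of the RKIP shRNA arrays minus the mean of the control arrays on that scale. A gene was called when limma, fitted over all 14884 genes, gave a Benjamini-Hochberg adjusted p under 0.05. Only 3 arrays per group limit the precision. PEBP1 itself was at 8.25, 8.18 and 8.24 in RKIP shRNA cells, against 9.52, 9.77 and 9.75 in control cells, which is 36.4% of the control level (change -1.46, SE 0.09, limma adjusted p = 0.000228). An exact two-sided permutation test over the 20 assignments gave PEBP1 a p of 0.10, the smallest possible with 3 arrays against 3. A gene whose mean in a group was below 4.08, the median over the whole table, is called dim there. LYZ, the lysozyme gene of myeloid cells, was far higher in RKIP shRNA cells (10.09 ± 0.03) than in control cells (7.55 ± 0.09; SD, n = 3 each), so the populations also differed in a marker of their own lineage. Of 9 measured genes on a list of monocytic line markers, 6 were called higher and 1 lower, 77.8% called beside 20.2% of all genes. The lower one was CD4, at 6.81 in RKIP shRNA cells and 7.16 in control cells (limma adjusted p = 0.0151). SPI1, a transcription factor of myeloid cells, was at 9.27 ± 0.07 in RKIP shRNA cells and 8.78 ± 0.09 in control cells (SD, n = 3 each), while CD14, a monocyte surface marker, was dim in both (2.71 and 2.77). Whether these marker levels bear on the ribosomal protein genes was not tested. In bulk RNA, a change in the share of cells and a change in RNA per cell cannot be told apart.

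Genes of the mitochondrial ribosome were higher in RKIP shRNA cells far more often than lower, whereas most genes of the cytosolic ribosome were not called. Among 73 mitochondrial members, 26 rose, 4 fell and 43 were not called, so 41.1% were called, beside 20.2% of all genes tested. Higher calls made up 35.6% of the mitochondrial members, beside 10.0% of all genes, and lower calls 5.48%, beside 10.2% of all genes. The median change was 0.21 over the mitochondrial members and 0.02 over all genes. Changes in the middle of the distribution were small, with quartiles of 0.03 and 0.33, and single genes ranged between -0.45 and 0.93. The sign was positive for 56 mitochondrial members and negative for 17. In the large subunit 42 were positive and 6 negative, whereas the small subunit was more evenly split, with 14 positive and 11 negative. Over all genes 8063 were positive and 6821 negative.

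Among 55 cytosolic members, 4 rose, 2 fell and 49 were not called. The share called, 10.9%, was below that of all genes, with 7.27% higher and 3.64% lower. The median change was -0.01, the quartiles were -0.09 and 0.10, and 46 of the 55 members had a change of less than 0.2 in either direction. The mitochondrial members had 28 of 73 within that limit.

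The groups of arrays did not overlap for 53 of 73 mitochondrial members (72.6%) and for 15 of 55 cytosolic members (27.3%), beside 37.9% of all genes. This share also depends on how bright a gene is, and it is given by band of brightness below. Every RKIP shRNA array lay above every control array for 44 mitochondrial members and 7 cytosolic members, beside 19.8% of all genes. Averaged over the mitochondrial members and set against the control mean, the RKIP shRNA arrays stood at 0.23, 0.16 and 0.22 and the control arrays at 0.05, -0.01 and -0.03. All 3 RKIP shRNA arrays thus lay above all 3 control arrays for this average. Over the cytosolic members the RKIP shRNA arrays stood at -0.01, -0.03 and 0.12 and the control arrays at -0.01, 0.01 and -0.00. RKIP shRNA replicate 3 stood apart here: it was the highest of its group for 42 of 55 cytosolic members (76.4%), for 33 of 73 mitochondrial members (45.2%) and for 35.0% of all genes. Without it the cytosolic median was -0.04.

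**Figure D1:**
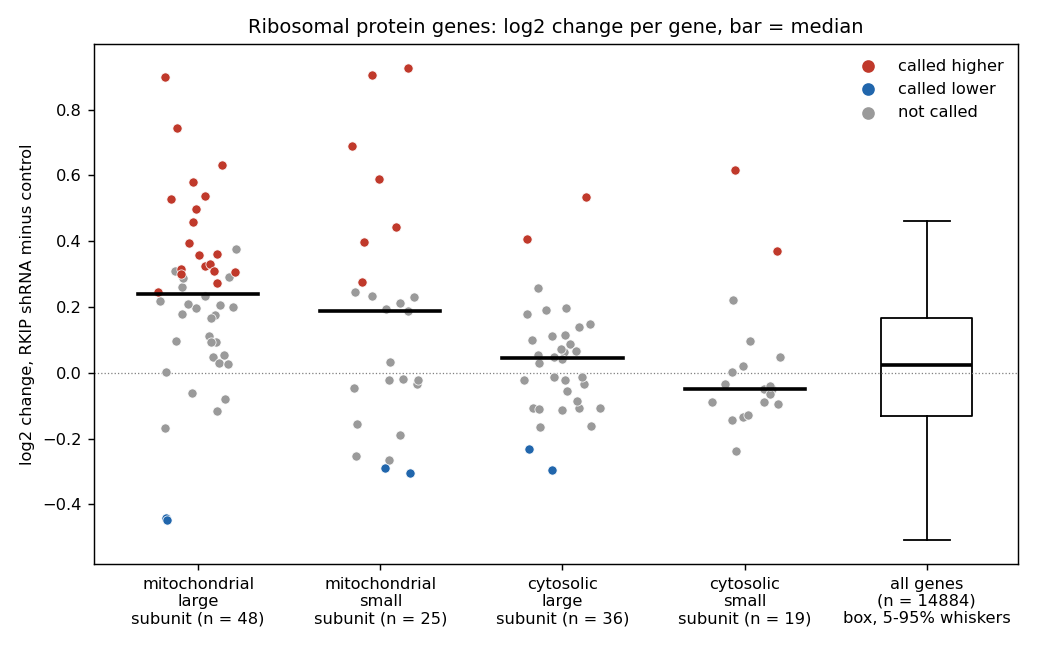
Log2 change (RKIP shRNA minus control, vertical axis) of each ribosomal protein gene, 1 point per gene, by ribosome and subunit, with a bar at the median and a box with 5 to 95% whiskers for all 14884 genes. The mitochondrial large subunit column sits mostly above 0 (median 0.24, 42 genes positive and 6 negative). The mitochondrial small subunit column is more evenly split (median 0.19, 14 positive and 11 negative). Both cytosolic columns are centred near 0 (medians 0.05 and -0.05).

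Leaving out 1 array lowered the counts without moving the medians beyond the replicate spread. The mitochondrial count of 30 became 16 without RKIP shRNA replicate 1, 19 without RKIP shRNA replicate 3, 18 without control replicate 2 and 17 without control replicate 3. The cytosolic count of 6 became 3 without RKIP shRNA replicate 1, without control replicate 2 and without control replicate 3. The share called stayed between 21.9% and 31.5% for mitochondrial members and between 5.45% and 9.09% for cytosolic members in these 6 fits, beside 13.3% to 16.1% of all genes. Calls that held in every one of the 6 fits numbered 15 among the mitochondrial members and 3 among the cytosolic ones.

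Because the share called depends on how bright a gene is, the sets were also read within bands of the 6-array mean, which were set after values had been seen. Between 6 and 8, 21 of 35 mitochondrial members (60.0%) and 2 of 12 cytosolic members (16.7%) were called, beside 35.4% of all genes in that band. Between 8 and 10, 7 of 30 mitochondrial members (23.3%) and 1 of 24 cytosolic members (4.17%) were called, beside 38.5% of all genes there. From 10 upward 1 of 6 mitochondrial and 2 of 12 cytosolic members were called, 16.7% of each, beside 37.1% of all genes there. The mitochondrial share called in either direction therefore exceeded that of all genes in the band from 6 to 8. It was below that of all genes in both brighter bands, and the cytosolic share was below that of all genes in each band. Higher calls alone made up 51.4%, 23.3% and 0.0% of mitochondrial members in these bands, beside 18.2%, 21.3% and 22.4% of all genes. Median changes were 0.30, 0.18 and -0.12 for mitochondrial members, 0.08, -0.02 and -0.07 for cytosolic members and 0.02, 0.03 and 0.05 for all genes. The excess of higher mitochondrial calls thus lay mainly in the band from 6 to 8. The groups of arrays did not overlap for 82.9%, 63.3% and 66.7% of mitochondrial members in these bands, beside 58.5%, 70.0% and 70.4% of all genes. For cytosolic members these shares were 33.3%, 20.8% and 33.3%. Non-overlap of mitochondrial members was thus more frequent than over all genes only in the band from 6 to 8.

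**Figure D2:**
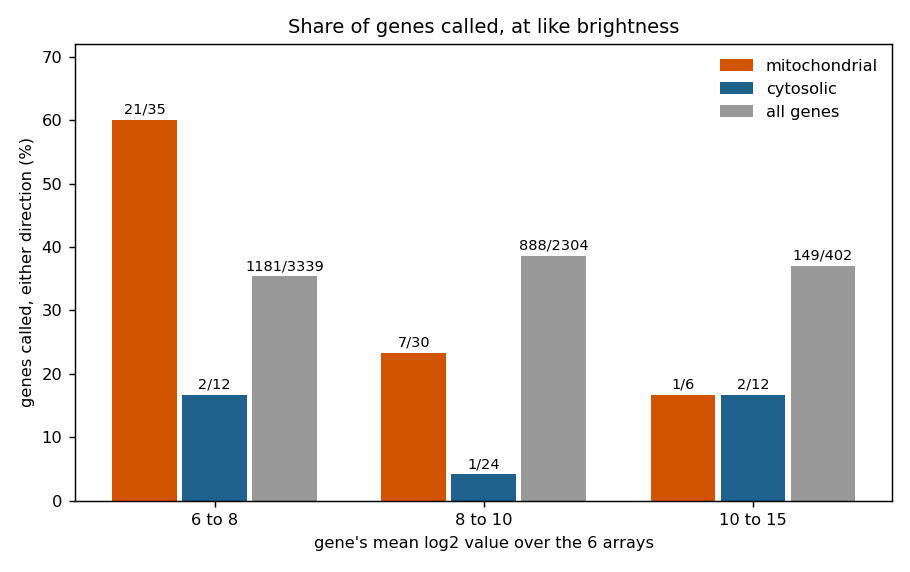
Percentage of genes called in either direction (vertical axis) for mitochondrial members, cytosolic members and all genes, in 3 bands of the mean log2 value over the 6 arrays, with called over total above each bar. Mitochondrial members reach 60.0% in the band from 6 to 8 and 23.3% in the band from 8 to 10, beside 35.4% and 38.5% of all genes.

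In the small subunit of the mitochondrial ribosome, which binds the message and holds the decoding site, 7 of 25 members rose and 2 fell, with a median change of 0.19. MRPS7, the mitochondrial form of the protein that organises the head of the small subunit, had log2 values of 9.15, 9.11 and 9.35 in RKIP shRNA cells, against 8.28, 8.29 and 8.25 in control cells. All 3 RKIP shRNA arrays were above all control arrays, a rise of 0.93 (SE 0.08, 1.90-fold, limma adjusted p = 0.000714). MRPS12, a protein of the decoding site, was at 7.76, 7.79 and 7.72 in RKIP shRNA cells and at 7.03, 6.82 and 6.71 in control cells. It rose by 0.91 (SE 0.09, limma adjusted p = 0.00126), again with no overlap. MRPS17, which belongs to the family of small subunit proteins shared with bacteria, was at 8.37, 8.32 and 8.28 in RKIP shRNA cells and at 7.83, 7.67 and 7.69 in control cells, a rise of 0.59 (SE 0.07, limma adjusted p = 0.00242).

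MRPS28 was at 6.95, 6.82 and 7.17 in RKIP shRNA cells, against 6.43, 6.25 and 6.18 in control cells. Its rise of 0.69 (SE 0.11, limma adjusted p = 0.00628) came with the widest RKIP shRNA spread of the 7 genes that rose. MRPS26 rose by 0.44, MRPS23 by 0.40 and MRPS11, a protein of the platform, by 0.27. MRPS26 and MRPS23 are known as proteins of the mitochondrial ribosome with no bacterial counterpart. MRPS9, whose tail reaches the site where transfer RNA is held, went the other way, with 7.68, 7.62 and 7.76 in RKIP shRNA cells and 7.93 to 8.05 over the 3 arrays of control cells. MRPS9 fell by 0.30 (SE 0.07, limma adjusted p = 0.0257), and MRPS31, named after its values were seen, fell by 0.29 (limma adjusted p = 0.0393). Leaving out an array ended the MRPS9 call in 4 of 6 fits, the MRPS31 call in 5, the MRPS11 call in 5 and the MRPS23 call in 2. The members that were not called with the largest changes were MRPS30 (-0.26), MRPS18B (-0.25) and MRPS33 (0.25), with limma adjusted p between 0.0540 and 0.0758. MRPS30 and MRPS18A, named with an S, are placed in the large subunit by structures of the ribosome, and counting them there left the number of large subunit calls at 21.

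In the large subunit of the mitochondrial ribosome, which joins amino acids and holds the exit tunnel, 19 of 48 members rose and 2 fell. The median change was 0.24. Higher calls made up 39.6%, beside 10.0% of all genes, and lower calls 4.17%, beside 10.2%. MRPL40, a protein found in mitochondrial but not bacterial ribosomes, had 7.56, 7.41 and 7.51 in RKIP shRNA cells, against 6.64, 6.65 and 6.49 in control cells. It had the smallest p among all 128 members, with a rise of 0.90 (SE 0.08, 1.86-fold, limma adjusted p = 0.000688). MRPL49, also particular to mitochondrial ribosomes, was at 8.31, 8.29 and 8.19 in RKIP shRNA cells and at 7.41, 7.55 and 7.60 in control cells, a rise of 0.74 (SE 0.08, limma adjusted p = 0.00128). In both genes the gap between the groups was several times the spread within them.

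MRPL13, a protein of the family shared with bacteria, was at 7.36, 7.18 and 7.21 in RKIP shRNA cells and at 6.69, 6.59 and 6.59 in control cells. It rose by 0.63 (SE 0.08, limma adjusted p = 0.00233) with no overlap. MRPL24, which in bacteria has a counterpart beside the exit tunnel, rose by 0.54, and MRPL28, also shared with bacteria, by 0.53. MRPL1, which forms the stalk where spent transfer RNA leaves, was at 6.92, 6.69 and 6.82 in RKIP shRNA cells and at 6.35, 6.29 and 6.29 in control cells. MRPL1 rose by 0.50 (SE 0.08, limma adjusted p = 0.00563), and MRPL51, another protein particular to mitochondrial ribosomes, by 0.46 (limma adjusted p = 0.00459).

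The other 12 large subunit genes that rose did so by 0.25 to 0.58, with limma adjusted p between 0.00943 and 0.0469. They were MRPL14, MRPL15, MRPL17, MRPL18, MRPL20, MRPL23, MRPL27, MRPL33, MRPL36, MRPL38, MRPL54 and MRPL57, listed here to complete the count. MRPL27, the counterpart of a bacterial protein that reaches the peptidyl transferase centre, was among them with a rise of 0.39. Of these 12, only MRPL20 remained called whichever array was omitted, whereas MRPL23 and MRPL38 lost theirs in each.

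In the large subunit 2 genes fell. MRPL10, which tethers the stalk that recruits translation factors, was at 6.54, 6.55 and 6.62 in RKIP shRNA cells, against 7.023, 6.999 and 7.022 in control cells. It fell by 0.44 (SE 0.06, limma adjusted p = 0.00377). MRPL45, which holds the ribosome at the inner membrane near the tunnel exit, was at 10.00, 9.94 and 10.18 in RKIP shRNA cells and at 10.54, 10.45 and 10.47 in control cells, a fall of 0.45 (SE 0.08, limma adjusted p = 0.0108). Both calls held in all 6 fits that left out an array. The members not called with the largest changes were MRPL43 (0.37), MRPL41 (0.31) and MRPL4 (0.29), of which MRPL43 had a limma adjusted p of 0.0507.

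**Figure D3:**
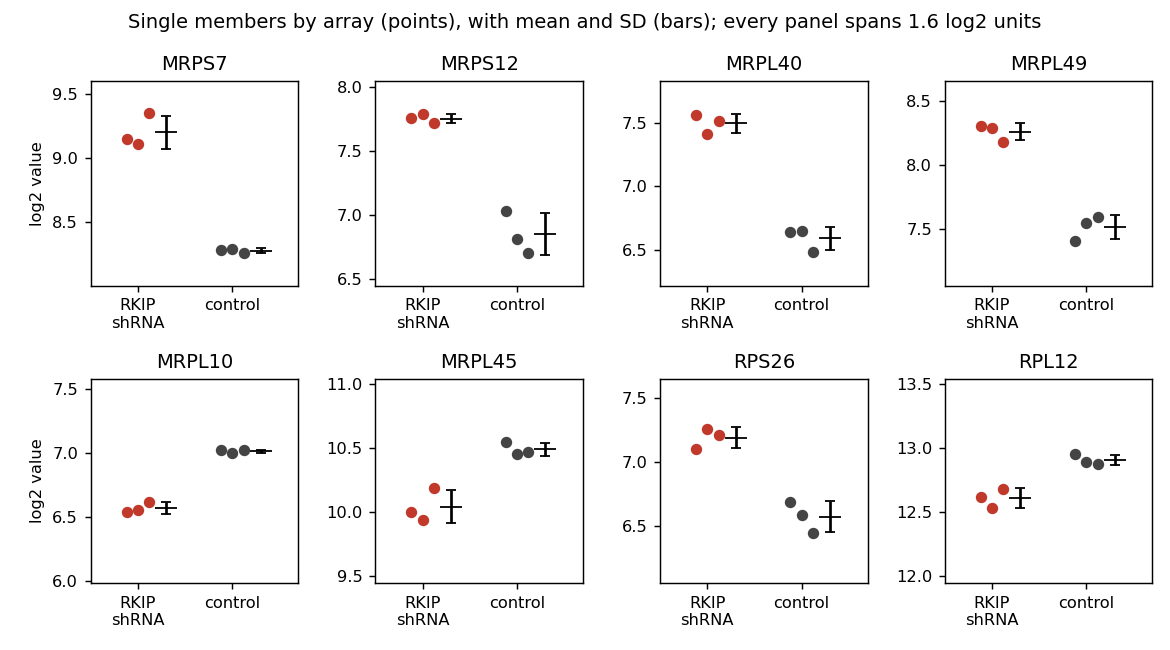
Log2 values (vertical axis) of 8 members on each array, with RKIP shRNA left of control, and the mean with its SD beside the points; every panel spans 1.6 log2 units. MRPS7, MRPS12, MRPL40, MRPL49 and RPS26 are higher on all 3 RKIP shRNA arrays, and MRPL10, MRPL45 and RPL12 are lower on all 3.

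Rises were found among mitochondrial members with lower and with higher symbol numbers, in a larger share of those with lower numbers. A split by number was made after the values were seen, with MRPL numbers up to 36 and MRPS numbers up to 21 taken as those that follow the bacterial names. The split is rough, since MRPL47, of the uL29 family found in both ribosomes, falls among the higher numbers. Of 41 members so numbered, 17 rose (41.5%, beside 10.0% of all genes) and 2 fell, with a median change of 0.23. Of the 32 members with higher numbers, 9 rose (28.1%) and 2 fell, with a median of 0.19. In the large subunit, higher calls made up 48.1% of the lower and 28.6% of the higher numbers. In the small subunit these shares were 28.6% and 27.3%. The difference between these parts was not tested.

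In the large subunit of the cytosolic ribosome 2 of 36 members rose and 2 fell, with a median change of 0.05. In the small subunit 2 of 19 rose and 0 fell (limma, 1 at an unadjusted p under 0.05), with a median of -0.05. Higher calls made up 5.56% of the large and 10.5% of the small subunit members, beside 10.0% of all genes. Lower calls made up 5.56% of the large subunit members, beside 10.2% of all genes. RPS26, which lines the channel where the message leaves and is mutated in some patients with Diamond-Blackfan anaemia, was at 7.10, 7.26 and 7.21 in RKIP shRNA cells, against 6.69, 6.58 and 6.44 in control cells. It rose by 0.62 (SE 0.09, limma adjusted p = 0.00377), with the groups well apart. RPL29, a large subunit protein, was at 8.50, 8.33 and 8.55 in RKIP shRNA cells and at 8.137, 8.031 and 7.9995 in control cells, a rise of 0.41 (SE 0.08, limma adjusted p = 0.0157). The RPL29 call was lost without RKIP shRNA replicate 1, control replicate 2 or control replicate 3.

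The other cytosolic genes that rose are not standard subunits. RPL26L1, a near copy of RPL26, was at 5.88, 5.87 and 6.17 in RKIP shRNA cells and at 5.39, 5.45 and 5.47 in control cells, a rise of 0.53 (SE 0.10, limma adjusted p = 0.00913). RPL26 itself changed by -0.01 (limma adjusted p = 0.948). RPS19BP1, a nucleolar protein that binds RPS19 and met the symbol rule by name alone, was at 7.13, 7.19 and 7.10 in RKIP shRNA cells and at 6.72, 6.78 and 6.82 in control cells, a rise of 0.37 (SE 0.07, limma adjusted p = 0.00916). RPS19 was not called (-0.14, limma adjusted p = 0.210). With non-standard members set aside, 45 cytosolic members were left, of which 2 rose and 2 fell, with a median of -0.02.

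Both cytosolic genes that fell build flexible stalks of the large subunit. RPL12, at the base of the stalk that recruits translation factors, was at 12.62, 12.53 and 12.68 in RKIP shRNA cells and at 12.95, 12.89 and 12.88 in control cells, a fall of 0.30 (SE 0.07, limma adjusted p = 0.0259). RPL10A, the protein of the stalk where transfer RNA leaves, was at 10.68, 10.71 and 10.74 in RKIP shRNA cells and at 10.95, 10.94 and 10.94 in control cells, a fall of 0.23 (SE 0.06, limma adjusted p = 0.0383). These falls were small but the groups did not overlap in either gene. Leaving out an array ended the RPL10A call in all 6 fits and the RPL12 call in 5 of 6.

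Cytosolic members that were not called with the largest changes were RPL36A-HNRNPH2, a read-through of RPL36A into the next gene (0.26), RPL34 (0.20) and RPL6 (0.19) in the large subunit. In the small subunit they were RPS15A (-0.24), RPS7 (0.22) and RPS19. Variant forms of cytosolic proteins other than RPL26L1 were not called, with changes of -0.11 for RPL10L, 0.03 for RPL22L1, -0.16 for RPL39L and -0.13 for RPS27L. The standard forms beside them changed by -0.04 for RPL10, 0.07 for RPL22, -0.11 for RPL39 and -0.10 for RPS27, also not called. RPL10L, known from the testis, was dim in both groups (2.96 and 3.06). Ribosomal protein genes have many processed pseudogenes and near copies, and the probe sequences were not used here, so shared signal between such genes cannot be told apart.

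**Figure D4:**
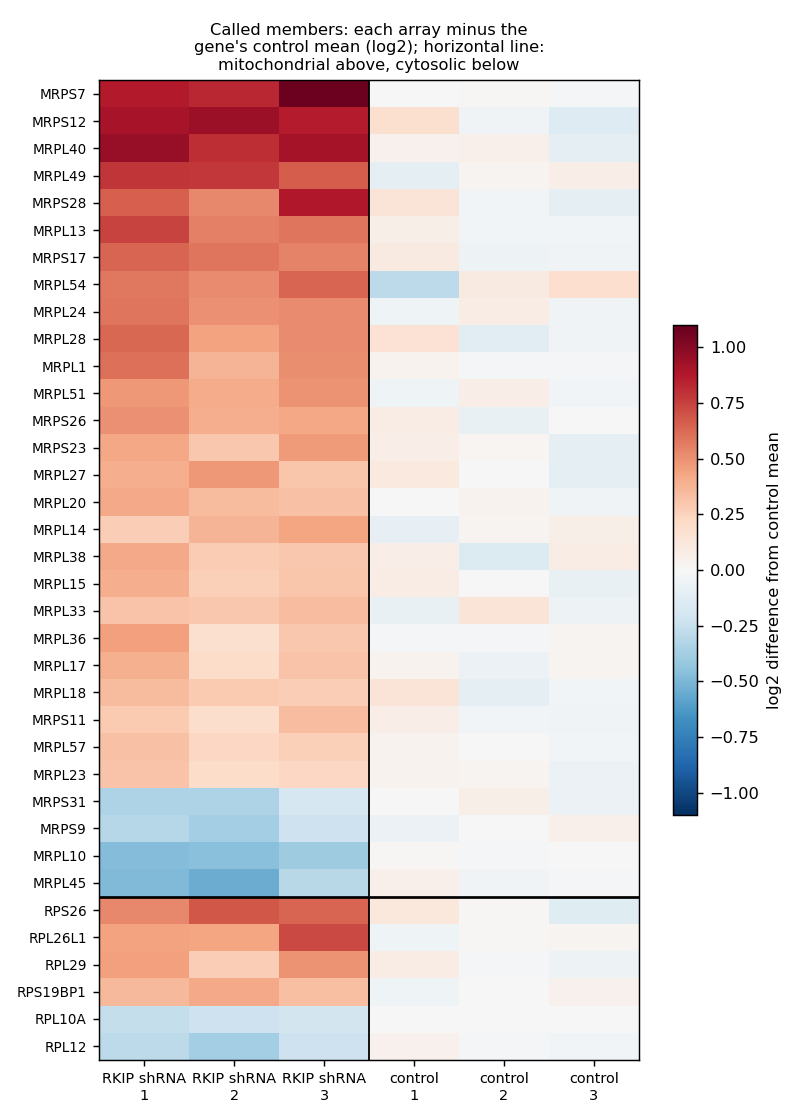
Log2 difference of each array from the gene's control mean (colour scale) for the 36 called members, with the RKIP shRNA arrays in the left columns, the control arrays in the right columns, mitochondrial genes above the line and cytosolic genes below it. MRPS7, MRPS12 and MRPL40 head the mitochondrial genes with rises of 0.93, 0.91 and 0.90, and MRPL45 and MRPL10 close them with falls of 0.45 and 0.44.

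Some proteins exist in both ribosomes as descendants of the same ancestral protein, and 11 such pairs had both genes measured. The pairs were listed after values had been seen. The mitochondrial gene had the higher change in 10 pairs and the lower change in 1. Of the mitochondrial genes 4 rose and 1 fell, with a median change of 0.23. Of the cytosolic genes 0 rose (limma, also 0 at an unadjusted p under 0.05) and 2 fell, with a median of -0.04. Among all genes 10.0% were called higher and 10.2% lower, 20.2% in either direction. The 11 cytosolic genes, of which 2 were called, all had a 6-array mean above 8. Of all genes, 38.5% were called between 8 and 10 and 37.1% from 10 upward. The difference within a pair was not tested, and each value comes from the same 6 arrays.

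In the uS12 pair, a decoding site protein, MRPS12 changed by 0.91 (95% interval 0.68 to 1.13) and RPS23 by -0.06 (-0.33 to 0.20). In the uL1 pair, the exit stalk, MRPL1 changed by 0.50 (0.31 to 0.69) and RPL10A by -0.23 (-0.38 to -0.09). The uL1 genes were thus called in opposite directions. In the uL11 pair, the stalk base, MRPL11 changed by 0.29 (0.08 to 0.50, not called) and RPL12 by -0.30 (-0.46 to -0.13). In the uL24 pair, a protein near the tunnel exit, MRPL24 changed by 0.54 (0.37 to 0.70) and RPL26 by -0.01 (-0.24 to 0.22). The intervals of the mitochondrial and cytosolic gene did not meet in these 4 pairs and met in the other 7. The exception in direction was uS9, where MRPS9 fell by 0.30 and RPS16 changed by -0.09 (-0.27 to 0.09).

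**Figure D5:**
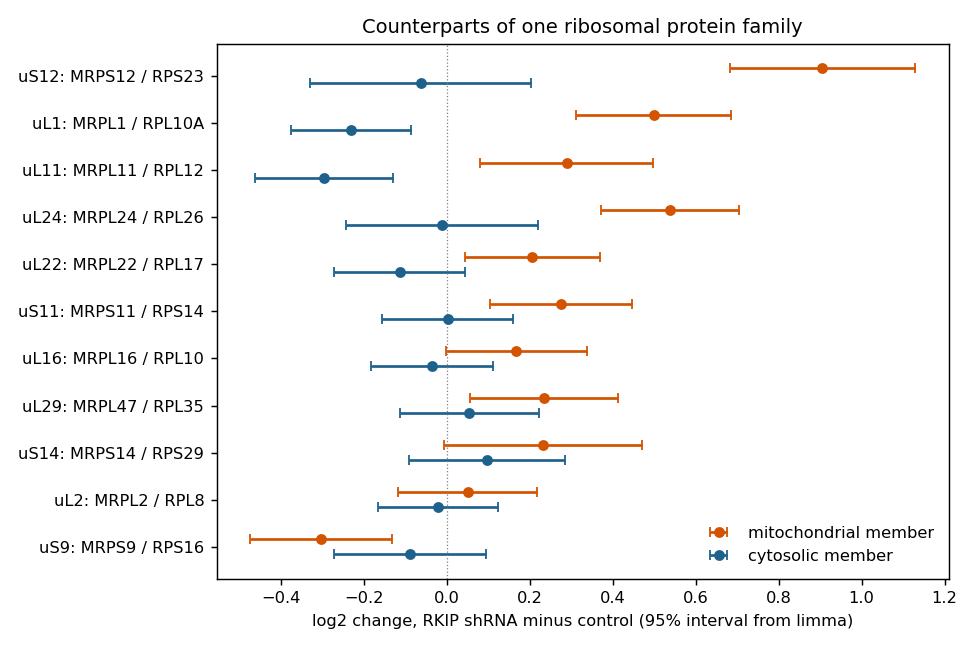
Log2 change, RKIP shRNA minus control (horizontal axis), of the mitochondrial and the cytosolic gene of 11 protein families, with 95% intervals from limma. The mitochondrial point is to the right of the cytosolic one in 10 families and to its left in uS9, where MRPS9 changed by -0.30 and RPS16 by -0.09.

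The DNA around the transcription start is printed for 6 of the 11 pairs, to show what a TOP tract looks like in a cytosolic gene beside the start of its mitochondrial counterpart. Sequences are from RefSeq on GRCh38.p14, 15 bases on each side of the first listed start, 5′ to 3′ on the strand of the gene. Capitals mark a run of C and T that begins with a C exactly at the listed start, the form of a TOP tract.
MRPS12 (chr19:38930929-38930958, plus strand): cggatagcgcccggaagaggctagaagctg
RPS23 (chr5:82278340-82278369, minus strand): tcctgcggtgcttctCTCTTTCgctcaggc
MRPL24 (chr1:156741074-156741103, minus strand): ggacgctgagggcccatgtgctgaaaatcc
RPL26 (chr17:8383179-8383208, minus strand): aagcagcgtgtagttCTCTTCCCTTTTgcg
MRPS11 (chr15:88467693-88467722, plus strand): aaactgactggggtcaattcaagtcatgca
RPS14 (chr5:150449725-150449754, minus strand): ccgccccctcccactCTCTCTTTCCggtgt
MRPS9 (chr2:105038054-105038083, plus strand): ccccctcacccctccggtcctggagctccc
RPS16 (chr19:39435935-39435964, minus strand): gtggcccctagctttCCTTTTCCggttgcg
MRPL11 (chr11:66438834-66438863, minus strand): ctgccctagcctaacgtgaggacccttgac
RPL12 (chr9:127451392-127451421, minus strand): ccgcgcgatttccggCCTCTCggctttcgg
MRPL1 (chr4:77862815-77862844, plus strand): aacaatttcgtgaacgcaatccggagtgcc
RPL10A (chr6:35468386-35468415, plus strand): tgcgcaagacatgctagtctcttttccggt

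Over the 10 pairs with both promoters matched, 6 cytosolic genes begin with such a tract and 0 mitochondrial genes do. RPL10, RPL17 and RPS29, in pairs not printed, have none at the listed start, and RPL35 has one. RPL10A has a C and T run a few bases after the listed start, so it was not counted. A promoter sequence could be matched for 114 of the 128 members, 65 mitochondrial and 49 cytosolic. A C at the listed start followed by 4 bases of C or T was found for 5 of 65 mitochondrial members (7.69%) and for 30 of 49 cytosolic members (61.2%), beside 4.04% of all 27305 promoters in the table. Among matched mitochondrial genes, 0 of 22 that rose had it, beside 1 of 3 that fell and 4 of 40 that were not called (10.0%). The share was 4.63% among the tested genes that could be matched. The match depends on the base at which a start is listed, and no match says only that these letters are not at that base.

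In the 250 bases before and 50 after the start, CCGGAAG, the core bound by ETS factors, was searched on both strands. It was present in 28 of 65 mitochondrial members (43.1%) and 14 of 49 cytosolic members (28.6%), beside 10.7% of all promoters and 1609 of those of the 10749 tested genes that could be matched. Among mitochondrial members it was present in 11 of 22 that rose, 1 of 3 that fell and 16 of 40 that were not called (40.0%). ATGGCGGC, a core bound by YY1, was present in 18 of 65 mitochondrial members (27.7%) and 3 of 49 cytosolic members (6.12%), beside 3.21% of all promoters. It was present in 3 of the 22 that rose (13.6%) and 14 of the 40 that were not called (35.0%). CGCATGCG, the core bound by NRF1, was present in 2 mitochondrial members and 1 cytosolic member (3.08% and 2.04%), beside 2.19% of all promoters, and CACGTG, the E-box bound by MYC, in 7.69% and 6.12%, beside 7.43%. Among the tested genes that could be matched, the shares were 4.77% for the YY1 core, 3.14% for the NRF1 core and 9.02% for the E-box. None of the 4 searched motifs contains another. A match is a description of the sequence, and binding was not measured.

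Of the mitochondrial genes that rose and carry the ETS core, 4 are printed as examples of its position. Each window runs from 45 bases before the first listed start, 50 bases in all, on GRCh38.p14 from RefSeq, with CCGGAAG or its reverse complement CTTCCGG in capitals.
MRPL40 (chr22:19432500-19432549, plus strand): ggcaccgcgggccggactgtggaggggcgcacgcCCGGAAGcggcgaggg
MRPS12 (chr19:38930899-38930948, plus strand): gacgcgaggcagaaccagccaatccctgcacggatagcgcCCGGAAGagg
MRPS23 (chr17:57850040-57850089, minus strand): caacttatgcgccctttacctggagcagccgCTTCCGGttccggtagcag
MRPS26 (chr20:3046007-3046056, plus strand): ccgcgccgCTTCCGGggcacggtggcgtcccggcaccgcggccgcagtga

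The core begins 11 bases before the start in MRPL40, 5 in MRPS12, 14 in MRPS23 and 37 in MRPS26. These 4 genes changed by 0.90, 0.91, 0.40 and 0.44. The position of the core was not compared with that in members not called, and its relation to the changes was not tested.

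Of 22 measured factors that build the mitochondrial ribosome, 10 rose, 1 fell and 11 were not called, with a median change of 0.18. Higher calls made up 45.5% of these factors, beside 10.0% of all genes and 18.2% to 22.4% of all genes in the brightness bands from 6 upward. MRM2, which methylates the large mitochondrial ribosomal RNA, was at 8.71, 8.67 and 8.63 in RKIP shRNA cells, against 7.81, 7.81 and 7.69 in control cells, a rise of 0.90 (limma adjusted p = 0.000491). RCC1L, which takes part in assembly of the large subunit, rose by 0.69 (limma adjusted p = 0.00125). NOA1, a GTPase needed for the small subunit, was at 9.25, 9.17 and 9.51 in RKIP shRNA cells and at 10.30, 10.30 and 10.31 in control cells. It fell by 0.99 (limma adjusted p = 0.000954), a larger change than in any of the 128 ribosomal protein genes.

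Of 4 genes for subunits of the mitochondrial ribosome or its membrane partner OXA1L that carry other names, 1 rose and 1 fell. The median change of these 4 genes was -0.14, unlike the positive median of the mitochondrial members. OXA1L, DAP3 and PTCD3 all had negative changes, those of DAP3 (-0.06) and PTCD3 (-0.23) without a call. CHCHD1, a small subunit protein, rose by 0.52 (limma adjusted p = 0.00267), and OXA1L, which inserts new proteins into the inner membrane, fell by 0.26 (limma adjusted p = 0.0270), a call lost in all 6 fits that left out an array. Of 12 mitochondrial translation factors 2 rose and 2 fell. Calls made up 33.3%, beside 20.2% of all genes and 35.4% to 38.5% of all genes in the brightness bands from 6 upward. TACO1, an activator of COX1 translation, rose by 0.47, whereas the release factor family member MTRF1 fell by 0.39 and the initiation factor MTIF2 by 0.25. The MTIF2 call was lost in 5 of the 6 fits that left out an array and the TACO1 call in 2. Of 3 genes of mitochondrial transcription and DNA upkeep, TWNK, the helicase of mitochondrial DNA, rose by 0.64. The 2 measured genes of the list on mitochondrial aminoacyl-tRNA formation, GATB and QRSL1, belong to the same amidotransferase, and GATB rose by 0.47 while QRSL1 fell by 0.23, a call lost in all 6 such fits.

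The lists around the cytosolic ribosome are given beside the 20.2% of all genes that were called. Most of their genes had a 6-array mean above 6, where 35.4% to 38.5% of all genes were called, depending on the band. Of 15 other genes known to have a TOP tract, 0 rose (limma, 1 at an unadjusted p under 0.05) and 2 fell, 13.3% called, with a median change of -0.03. EEF2, the elongation factor that moves the ribosome along the message, fell by 0.32 (limma adjusted p = 0.0205), and this call was lost in 5 of 6 fits that left out an array. EPB41L4A-AS1, a non-coding host of a small nucleolar RNA, fell by 0.56 (limma adjusted p = 0.00398). FAU, which encodes the small subunit protein RPS30, was not called (0.26, limma adjusted p = 0.166). Of 17 chaperones and export factors of ribosomal proteins, 4 rose and 2 fell, 35.3% called, with a median change of 0.02. GRWD1, a chaperone of RPL3, rose by 0.82 (limma adjusted p = 0.000681), and BCCIP, a chaperone of RPL23, by 0.56. NMD3, the export adaptor of the large subunit, fell by 0.54 (limma adjusted p = 0.00308).

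Of 16 regulators of ribosomal protein synthesis, 4 rose and 3 fell, with a median change of 0.11. Calls made up 43.8%, beside 20.2% of all genes and 35.4% to 38.5% of all genes in the brightness bands from 6 upward. RHEB, the GTPase that activates mTOR, rose by 0.55 (limma adjusted p = 0.00518), and TSC1, part of the complex that switches RHEB off, fell by 0.46 (limma adjusted p = 0.00298). The kinase gene MTOR rose by 0.28, and so did genes of proteins that restrain its output, AKT1S1, an inhibitor within its complex, by 0.40 (limma adjusted p = 0.0211) and EIF4EBP2, a repressor of translation initiation, by 0.35 (limma adjusted p = 0.0107). MXI1, an antagonist of MYC, fell by 0.62 (limma adjusted p = 0.00264). MYC, a known activator of ribosomal protein genes, also fell, by 0.42 (limma adjusted p = 0.00826). MTOR, AKT1S1, EIF4EBP2 and MYC were named outside the rule for named genes, to complete the count. Of 16 genes of ribosome quality control and hibernation, 1 rose and 3 fell, with a median of -0.04, and the 4 called of 16 are close to the 20.2% of all genes. EDF1, which senses collided ribosomes, rose by 0.38, GTPBP2, a rescue factor, fell by 0.30 and HABP4, which binds idle ribosomes, fell by 0.49. Without 1 array the GTPBP2 call was lost in 4 of 6 fits and the HABP4 call in 1. Of the lists for other cell types, 1 of 3 T cell markers was called (CD5, 0.39, beside CD2 at -0.14 and CD8A at 0.26), 1 of 2 B cell markers (VPREB3, -0.38, beside PAX5 at -0.13), 1 of 5 epithelial markers (KRT18, -0.29) and the 1 measured fibroblast marker (FN1, 0.86). The other 4 epithelial markers changed by between -0.07 and 0.12, and 0 of 3 erythroid markers were called by limma, with 0 at an unadjusted p under 0.05. Without 1 array the CD5 and VPREB3 calls were lost in 5 of 6 fits each and the KRT18 call in 4, and with the mean of its probes KRT18 changed by -0.13 (limma adjusted p = 0.375). The part of these markers in the changes of the ribosomal protein genes was not tested.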

How the data were processed

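Total RNA of 3 RKIP shRNA and 3 control samples was hybridised to gene arrays, per the labels. The deposited table held 53617 rows of values that are on a log2 scale judging by their range, 0.721 to 14.0. Background correction, summarisation and normalisation are not given in the labels or headers, nor is a genome build. The platform annotation gave 1 symbol to 16098 rows and left 37519 unnamed. For each gene the probe with the highest mean over the 6 arrays was kept. The fit was limma 3.58.1 in R 4.3.3 (lmFit, eBayes, no filter on brightness), adjusted over all 14884 genes, and was tested on simulated data. No batch is in the labels.

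The members and gene lists were chosen with earlier results of these data known. Named genes were PEBP1, in each subunit every called member or the 8 with the smallest p, the 3 members with the largest change not called, measured pairs of paralogues, and up to 3 called genes per list. Other genes in the text were named after their values were seen. RPL34-DT, a non-coding RNA, was left out with 28 pseudogenes, 3 antisense genes and 2 RPS6K symbols. Alternatives were other normalisations, prior, probe, brightness and threshold choices, a replicate block, and leaving out each array.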

Additional observations from a re-analysis of the deposited data

Results flagged for a closer look

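Probes that the comparison did not use gave a call where the kept probe gave none in 2 genes. The second probe of MRPS16, a mitochondrial small subunit protein, was at 7.490, 7.453 and 7.497 in RKIP shRNA cells and at 7.11, 7.06 and 7.17 in control cells, a change of 0.37 (limma adjusted p over all named probes = 0.00931), while the kept probe changed by 0.19 and was not called. The second probe of MRPL44, a large subunit protein, was dim in both groups, at 2.74, 2.70 and 2.81 in RKIP shRNA cells and at 2.38, 2.32 and 2.32 in control cells, a change of 0.41 (limma adjusted p over all named probes = 0.00685), while the kept probe changed by 0.10 and was not called. Both probes of each gene changed in the same direction.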

How the results depend on the processing

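The median change stayed between 0.20 and 0.24 for mitochondrial members and between -0.04 and 0.03 for cytosolic members under every alternative run, and no called result changed sign. The count of called mitochondrial members, 30, ranged between 16 and 23 when an array was left out, and was 19 with the replicate block and 14 at an adjusted p under 0.01. The count of called cytosolic members, 6, ranged between 3 and 5 when an array was left out, and was 10 with a trended and robust prior, 3 at an adjusted p under 0.01 and 4 with the replicate block. The count over all genes, 3010, ranged between 1987 and 2397 when an array was left out, and was 1472 at an adjusted p under 0.01 and 2142 with the replicate block. Leaving dim genes out gave 44 mitochondrial calls (60.3%) and 7 cytosolic calls (13.0%), beside 38.2% of all genes left. Arrays of the same replicate number were not paired, since deviations of same-numbered arrays correlated at 0.019, 0.0034 and -0.0163. With 3 arrays per group, changes of the size seen in most members could not be called, and genes not called are not shown to be unchanged.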

Other observations

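The 34 symbols that the rule left out were pseudogenes for the most part. They included 6 that were lower in RKIP shRNA cells and 0 that were higher (limma, with 28 not called and 2 higher at an unadjusted p under 0.05). Among all genes 10.2% were called lower and 10.0% higher, and the 6 called of 34 are close to the 20.2% of all genes called. RPL32P3, a pseudogene of RPL32, was at 7.13, 7.15 and 7.16 in RKIP shRNA cells and at 7.74, 7.86 and 7.90 in control cells, a change of -0.69 (limma adjusted p = 0.00112). RPL34-DT, a non-coding RNA divergent from RPL34, changed by -0.82 (limma adjusted p = 0.00521), while RPL34 changed by 0.20 and was not called. MRPL42P5 changed by -1.02 and RPL21P44 by -0.75 (limma adjusted p = 0.0159 and 0.00299). These 4 were named after their values were seen.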
